A study of Capra hircus with 18 samples.

Results

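*ADAM12*, *ADAM15* and *ADAM19* encode members of the ADAM family of metalloproteases, and their transcripts were followed here in the blood of goats that were transported or held in pens. The members were chosen by gene name among the genes that the deposited tables list. They were 3 of the 1557 distinct genes of both tables. All 3 were among the 1247 genes listed for transport of 180 min, and 0 of 3 were among the 430 genes listed for 30 min.

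RNA from the blood of 18 uncastrated male Spanish goats, aged 8 months, was sequenced, with 1 library per goat. The 7 control goats stayed in pens, the 7 goats of the 180 min group were driven about 200 km, and the 4 goats of the 30 min group were driven about 50 km. All goats, control goats included, had been without feed overnight. Globin transcripts had been removed before sequencing, and the 2 transport days could not be assigned to single goats from the labels. The same 7 control goats served both comparisons.

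Each table holds only genes whose unadjusted p-value against control, in the study's own fit, was below 0.05 on these same goats. A listed gene had therefore already differed in that fit, and no test given below is independent evidence of its difference. Values of *ADAM12*, *ADAM15* and *ADAM19* in the 30 min group were not analysed here.

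ADAM proteins sit in the cell membrane and carry a metalloprotease domain followed by a disintegrin domain, which can bind integrins. The active proteases cut other membrane proteins close to the cell surface and so release growth factors, cytokines and receptors, a step called ectodomain shedding. The proteases are made as inactive precursors and lose a prodomain on the way to the surface. In leukocytes, shedding by ADAM proteases is known for its part in cytokine release, receptor loss and cell adhesion.

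Of the 3 members, *ADAM15* rose in the 180 min group, while *ADAM19* and *ADAM12* did not pass the test. *ADAM15* was 1.44 higher (SE 0.52) on the scale of log2(normalized count + 1), and each of the 7 transported goats lay above the control median. *ADAM19* had a higher mean but a lower median in the 180 min group than in control, and goats 14, 15 and 16 held most of its reads. *ADAM12* was close to absent in most goats, and most of its reads came from control goats 3 and 8. A normalized count is the number of reads on a gene divided by a size factor for the goat, so that goats sequenced to different depths can be compared. Blood is a mixture of cell types, and in its RNA more cells of a type and more RNA per cell cannot be told apart.

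**Figure D1:**
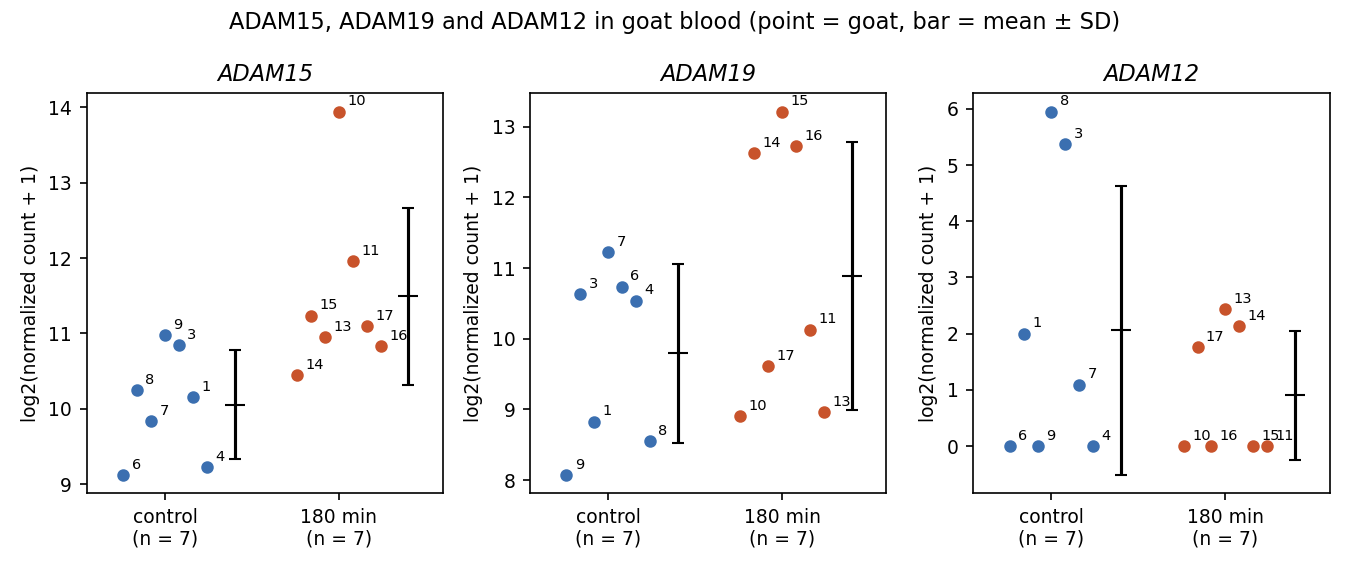
Normalized counts of *ADAM15*, *ADAM19* and *ADAM12* as log2(normalized count + 1) on the vertical axes, with 1 point per goat (goat number beside it) in the control and 180 min groups, and bars giving the mean ± SD of the 7 goats of a group. *ADAM15* in goat 10 stands above all other goats, *ADAM19* is highest in goats 14, 15 and 16, and *ADAM12* is highest in control goats 8 and 3.

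*ADAM15* (ENSCHIG00000006033) lies on the forward strand of chromosome 3 at chr3:104587381-104597163 in the coordinates of the deposited table, which names no genome build. Its gene model is protein coding and 2601 bases long. *ADAM15* is expressed by leukocytes and by the cells that line blood vessels, and it is known for roles in cell adhesion and migration. In the control goats, the normalized count of *ADAM15* was 1138 in goat 1, 1836 in goat 3, 597 in goat 4, 557 in goat 6, 912 in goat 7, 1218 in goat 8 and 2013 in goat 9. In the 180 min goats, it was 15728 in goat 10, 3978 in goat 11, 1983 in goat 13, 1394 in goat 14, 2413 in goat 15, 1820 in goat 16 and 2191 in goat 17. Goats 10, 11, 15 and 17 lay above every control goat, and goats 13, 14 and 16 lay within the control range.

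The mean was 4215 ± 5142 (SD, n = 7) in the 180 min group and 1182 ± 567 (SD, n = 7) in control, and the medians were 2191 and 1138. The difference of 1.44 had a two-sided p of 0.00641 in the exact permutation test over all 3432 splits of the 14 goats. The smallest p those splits can give is 0.000583. The quasi-likelihood test of edgeR, fitted to the read counts of all listed genes, gave a log2 fold change of 1.83 for *ADAM15*, with an adjusted p of 0.0353 after Benjamini-Hochberg correction over the listed genes. By that adjusted p below 0.05, 53.5% of the 1247 listed genes were called, 36.6% of the 1247 as higher and 16.9% as lower in the 180 min group. The exact permutation p was below 0.05 for 64% of the listed genes. *ADAM15* ranked 117 by edgeR p among the 1247 genes, and the median log2 fold change of all listed genes was 0.77.

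Goat 10 held 41.6% of the summed normalized count of *ADAM15* over the 14 goats. Without goat 10, the difference was 1.03, the edgeR log2 fold change was 0.96, and the adjusted p was 0.0398. In each of the 14 fits that left out 1 goat, the exact permutation p stayed below 0.05, with a range of 0.00408 to 0.0157. The edgeR adjusted p passed 0.05 in 4 of these 14 fits, with 0.0570 without control goat 1, 0.0571 without control goat 4, 0.0571 without control goat 6 and 0.0529 without control goat 8. Goat 10 was the highest goat for 432 of the 1247 listed genes (34.6%), and the listed genes took 26.2% of its library against 7.93% to 14.3% in the other 180 min goats.

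*ADAM19* (ENSCHIG00000005265) lies on the forward strand at chr7:41355441-41474978 in the same coordinates, with a protein-coding gene model of 4053 bases. It is also called meltrin beta, and it is known for cutting neuregulin and for expression in dendritic cells. In the control goats, the normalized count of *ADAM19* was 454 in goat 1, 1582 in goat 3, 1486 in goat 4, 1707 in goat 6, 2387 in goat 7, 373 in goat 8 and 268 in goat 9. In the 180 min goats, it was 479 in goat 10, 1118 in goat 11, 499 in goat 13, 6308 in goat 14, 9491 in goat 15, 6758 in goat 16 and 784 in goat 17. Goats 14, 15 and 16 lay above every control goat, and the other 4 transported goats lay below the control median.

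The mean of *ADAM19* was 3634 ± 3774 (SD, n = 7) in the 180 min group and 1180 ± 817 (SD, n = 7) in control, whereas the median was 1118 against 1486. The difference on the log2 scale was 1.09 (SE 0.86), with a two-sided exact permutation p of 0.228. The edgeR log2 fold change was 1.62, with an unadjusted p of 0.0392 and an adjusted p of 0.0567, so the gene was not called. The unadjusted p was below 0.05 for 81.6% of the listed genes. Goats 14, 15 and 16 held 67.3% of the 38035 reads of *ADAM19*. These goats were also the 3 highest for 115 of the 1247 listed genes (9.22%). The edgeR adjusted p fell below 0.05 when goat 10 (0.0497), goat 13 (0.0464) or goat 17 (0.0483) was left out, each of which had less than the control median.

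*ADAM12* (ENSCHIG00000011552) lies on the forward strand at chr26:6127068-6531200, with a protein-coding gene model of 3268 bases. It is also called meltrin alpha, is best known from muscle, placenta and connective tissue, and can cut insulin-like growth factor binding proteins. It had 87 reads in all 14 goats together, 16 in the 180 min group and 71 in control. In the control goats, goat 1 had 4 reads, goat 3 had 34, goat 7 had 2, goat 8 had 31, and goats 4, 6 and 9 had 0. In the 180 min goats, goat 13 had 8 reads, goats 14 and 17 had 4 each, and goats 10, 11, 15 and 16 had 0. No read was seen in 4 of 7 transported and 3 of 7 control goats, and a count of 0 allows up to 3 reads at these depths, for counting error only.

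In normalized counts, *ADAM12* stood at 40.6 in control goat 3 and 60.9 in control goat 8, and at 4.42 or less in every other goat. The mean was 1.46 ± 1.91 (SD, n = 7) in the 180 min group and 15.1 ± 25.1 (SD, n = 7) in control. The difference on the log2 scale was -1.15 (SE 1.07), with a two-sided exact permutation p of 0.335, and the edgeR log2 fold change was -3.17, with an adjusted p of 0.0628. Control goats 3 and 8 held 74.7% of the reads, and they were the 2 highest goats for 87 of the 1247 listed genes (6.98%). With so few reads, the difference in *ADAM12* was within the spread between goats.

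**Figure D2:**
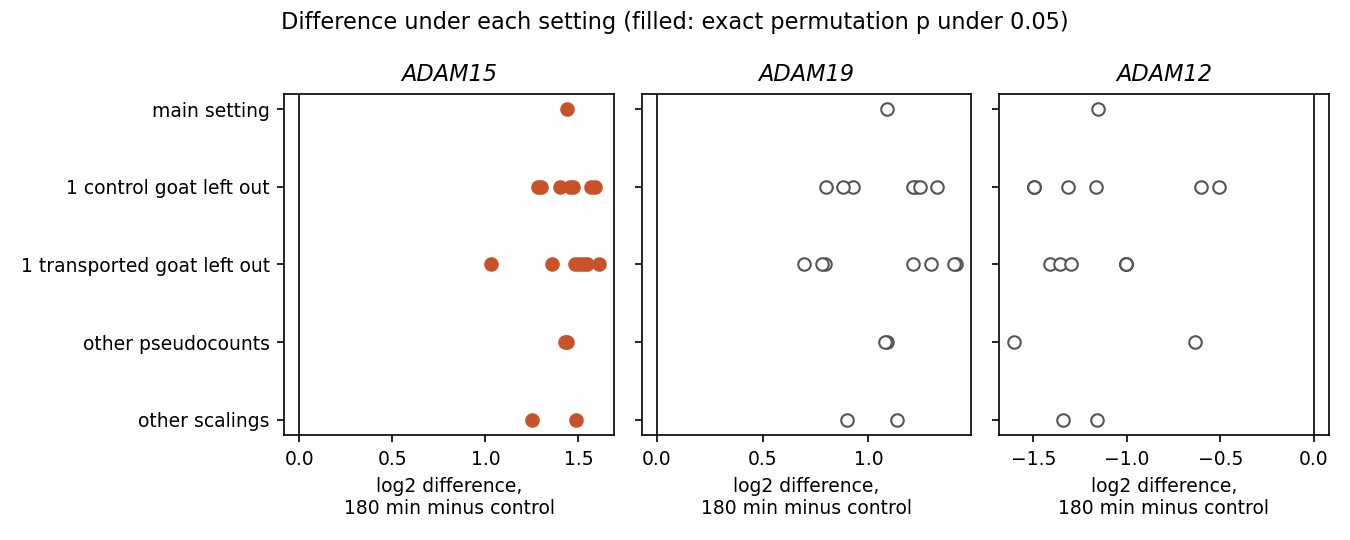
Difference in mean log2 expression between the 180 min and control goats on the horizontal axes, for the main setting, with 1 goat left out, with another pseudocount and with another scaling of the libraries. Filled points have an exact permutation p below 0.05, which holds for each point of *ADAM15* and for none of *ADAM19* or *ADAM12*, and no point crosses 0.

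Levels of different genes can be set side by side only per gene length, for which the deposited FPKM (reads or fragments scaled by gene length and by the size of the library) were used. *ADAM15* stood at 80.7 ± 98.7 FPKM (SD, n = 7) in the 180 min group and 22.2 ± 11.9 FPKM (SD, n = 7) in control. *ADAM19* stood at 42.0 ± 42.5 FPKM (SD, n = 7) and 13.4 ± 8.94 FPKM (SD, n = 7). *ADAM12* stood at 0.0224 ± 0.0297 FPKM (SD, n = 7) and 0.227 ± 0.376 FPKM (SD, n = 7), and was the lowest of the 3 genes in 14 of 14 goats.

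The order of *ADAM15* and *ADAM19* differed between goats. *ADAM15* had the higher FPKM in 8 goats, 4 of each group, and *ADAM19* in 6 goats, 3 of each group. In goat 10, *ADAM15* stood at 301 FPKM and *ADAM19* at 5.88 FPKM, a ratio of 51.2. In goat 15, *ADAM19* stood at 108 FPKM and *ADAM15* at 42.8 FPKM. In control goats 4, 6 and 7, *ADAM19* was at most 1.97 times *ADAM15*, and in goats 14, 15 and 16 it was 2.38 to 2.90 times *ADAM15*. Within either group, the spread of each gene overlapped that of the other, so neither gene stood apart as the higher one.

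**Figure D3:**
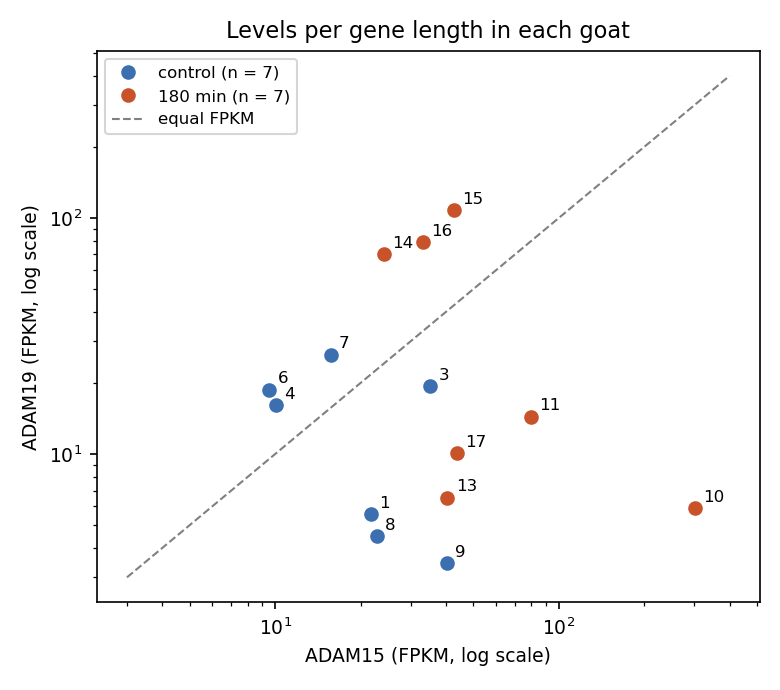
FPKM of *ADAM15* (horizontal) and *ADAM19* (vertical) in each of the 14 goats on log scales, coloured by group and marked with the goat number, with a dashed line at equal FPKM. The 6 goats above the line are control goats 4, 6 and 7 and transported goats 14, 15 and 16, and goat 10 lies farthest below it.

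After the mean of each group was taken out, the Pearson correlation between *ADAM15* and *ADAM19* over the 14 goats was -0.55, and -0.45 without goat 10. With *ADAM12*, the same correlation was 0.05 for *ADAM15* (0.23 without goat 10) and -0.17 for *ADAM19* (-0.24 without goat 10). These correlations are descriptions over goats that share the same libraries and size factors. The largest component of variation within groups, taken over 845 other listed genes whose normalized counts averaged 50 or more, held 42.8% of their variance. Goat 10 lay at one end of that component, at -0.737, and goats 14, 15 and 16 at the other end, at 0.308, 0.282 and 0.247. *ADAM15* had a correlation of -0.95 with it and *ADAM19* one of 0.74, and the values within the 180 min goats alone (-0.95 and 0.75) and within the control goats alone (-0.96 and 0.75) were alike.

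The genes most like each member were taken by Pearson correlation of log2(normalized count + 1) over the 14 goats, among 772 named listed genes whose normalized counts averaged 10 or more. For *ADAM15* these were *MYO1F*, a myosin of leukocytes (0.99), *PKM*, the pyruvate kinase of glycolysis (0.98), *NCLN* (0.98) and *CFP*, the complement protein properdin (0.98). The same 4 genes led after group means were taken out. For *ADAM19* they were *WDFY3*, a scaffold of selective autophagy (0.97), *ANKFY1* (0.96), *UBE2H*, an E2 ubiquitin-conjugating enzyme (0.95), and *MLXIP*, a glucose-responsive transcription factor (0.95). For *ADAM12* they were *PLCH2*, a phospholipase C (0.89), *CYP24A1*, the enzyme that breaks down active vitamin D (0.84), *CDHR1* (0.78) and *MCM5*, part of the replicative helicase (0.76). Each of these 4 genes had control goats 3 and 8 as its 2 highest goats, as *ADAM12* had. With 87 reads of *ADAM12* in all, its correlations rest mainly on those goats. The 3 sets of genes had no gene in common.

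Marker genes of blood cell types were read beside the members. Of 20 neutrophil marker genes, 8 were listed at 180 min, each had a log2 fold change above 0, and 7 were called higher, among them *IL1R2* and *CSF3R*. Their summed normalized count ranged from 64042 to 221777 in the 180 min goats, highest in goat 10, and from 19334 to 81151 in the control goats. Of 20 T cell marker genes, 7 were listed, each had a log2 fold change below 0, and 6 were called lower, with a summed count of 4583 to 9784 against 8663 to 16912. Leaving out 1 goat at a time, between 1 and 7 of the neutrophil genes and between 0 and 6 of the T cell genes stayed called, and all kept their direction. The fewest neutrophil genes were called without control goat 1, and 0 T cell genes were called without control goats 1, 4 or 6. Over all listed genes, 36.6% were called higher and 16.9% lower. None of these listed marker sums was at 0 in any goat.

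With group means taken out, *ADAM15* had a correlation of 0.85 with the neutrophil sum (0.89 without goat 10) and of -0.82 with the T cell sum (-0.72 without goat 10). *ADAM19* had a correlation of -0.27 with the neutrophil sum (-0.14 without goat 10). The genes with the most reads in that sum were *CSF3R* and *S100A12*. In it, *PGLYRP1*, *LTF*, *S100A12* and *S100A8* were highest in goat 10, and *ALPL* in goat 11. *IL1R2* was highest in goat 16, and *CSF3R* and *MGAM* in goat 15, the highest goat for *ADAM19*. In goats 14, 15 and 16, *MGAM* stood at 1421, 2264 and 1342 normalized counts. It was at most 151 in the other 180 min goats and at most 484 in control. The 3 listed monocyte and dendritic cell genes of 20, *CD163*, *CSF1R* and *CD14*, were all called higher, where 36.6% of the listed genes were. With 1 goat left out, 1 to 3 of them were called, with 1 called without control goats 1, 4, 6 or 8 or goats 11, 15 or 16, and TMM scaling left 1 called. Their sum ranged from 9216 to 31348 in the 180 min goats, highest in goat 15, and from 3052 to 10453 in control, and its correlation with *ADAM19* was 0.76, both with and without goat 10. *ADAM15* had a correlation of -0.07 with that sum (0.07 without goat 10). Of 10 platelet genes, 2 were listed, of which *CLEC1B* was called higher (edgeR adjusted p = 0.0411) and *GP1BB* was not called. With 1 goat left out, 0 to 1 of them were called, and with TMM scaling 0. Their sum was 20098 in goat 10 and 505 to 3041 in the other 180 min goats, against 159 to 3269 in control. Nearly all of that platelet sum was *GP1BB*, with 30801 reads against 106 for *CLEC1B*. With that platelet sum, the correlation was 0.88 for *ADAM15* (0.83 without goat 10) and -0.74 for *ADAM19* (-0.70 without goat 10). With the sum of 5 listed genes of 13 for connective tissue and endothelium, it was 0.79 for *ADAM15* (0.56 without goat 10) and -0.58 for *ADAM19* (-0.49 without goat 10). Of the NK cell, B cell and eosinophil lists, 1 gene each was listed. *NKG7*, of the granules of NK cells, was called higher, and its correlation was 0.67 with *ADAM15* (0.75 without goat 10) and -0.61 with *ADAM19* (-0.57 without goat 10). *MS4A1*, the B cell antigen CD20, was not called, and its correlation was 0.02 with *ADAM15* (-0.02 without goat 10) and -0.75 with *ADAM19* (-0.79 without goat 10). *ADGRE1*, from the eosinophil list, was not called, and its correlation was 0.46 with *ADAM15* (0.68 without goat 10) and 0.12 with *ADAM19* (0.13 without goat 10). Whether *ADGRE1* marks eosinophils in goat blood was not tested. Without control goats 1, 4 or 6, and with TMM scaling, *NKG7* was not called. The part of these cell types in the differences of *ADAM15* and *ADAM19* was not tested.

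For *ADAM12*, the known expression in connective tissue was set beside 5 listed genes of 13 for connective tissue and endothelium. These genes did not move together. *COL1A2*, a collagen chain, and *DCN*, the proteoglycan decorin, were called lower in the 180 min group with edgeR, but their exact permutation p was 0.176 and 0.192, and both calls rested on control goats 6, 7 and 8. *COL1A2* stood at 128, 43.6 and 33.4 normalized counts and *DCN* at 44.4, 22.7 and 39.3 in those goats, and both were at or below 3.20 in every other goat. With 1 goat left out, 0 to 2 of the 5 genes were called lower, with 0 called lower without control goats 1, 4, 6, 7 or 8 or goats 11, 15 or 16. *COL1A1* (log2 fold change -3.09) and the endothelial genes *CDH5* (2.73) and *VWF* (1.55) were not called. The correlation of *ADAM12* with the sum of the 5 genes, of which *VWF* had the most reads, was 0.04 with group means taken out and 0.20 without goat 10. No red cell gene of 12 was listed.

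**Figure D4:**
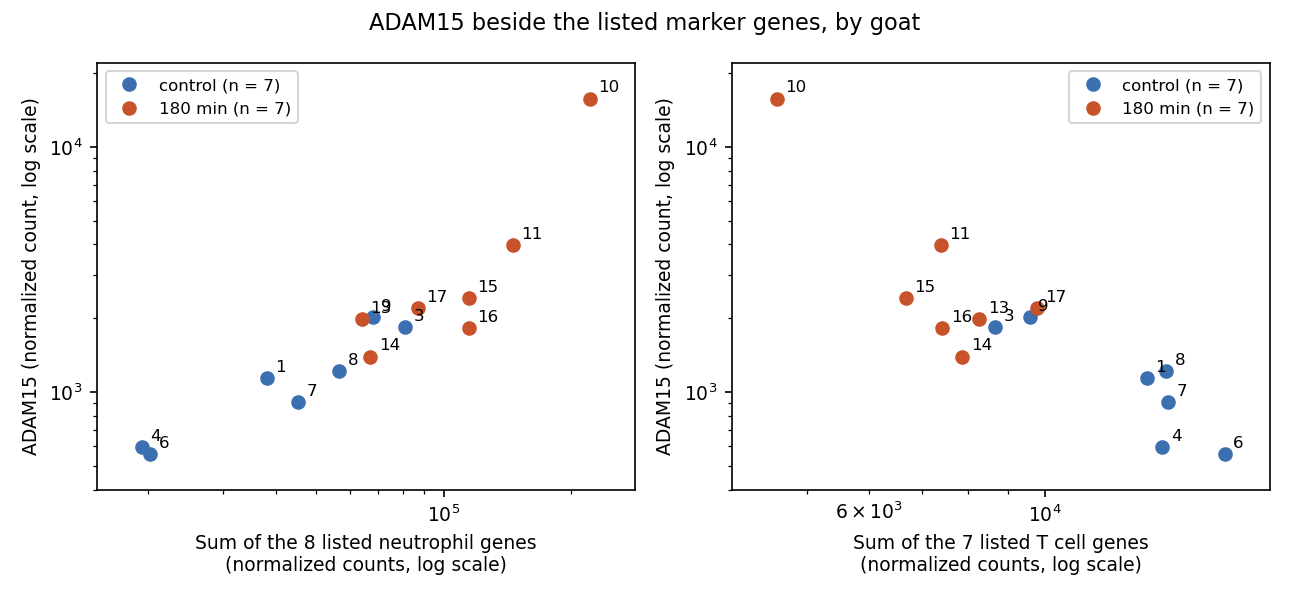
Normalized count of *ADAM15* (vertical, log scale) against the summed normalized counts of the 8 listed neutrophil genes (left) and of the 7 listed T cell genes (right) in each of the 14 goats, coloured by group. *ADAM15* is higher where the neutrophil sum is higher in both groups, and where the T cell sum is lower in control goats. Goat 10 is at the end of both plots. Among the other transported goats, the T cell sum shows no such order. Goat 17 has the highest sum (9784) with *ADAM15* at 2191, and goat 14 has a sum of 7870 with *ADAM15* at 1394.

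Of 13 other genes of the ADAM family looked for, which include *ADAM8*, *ADAM9*, *ADAM10* and *ADAM17*, 0 were listed in either table. Of 9 metalloprotease inhibitors, the TIMP genes among them, 0 were listed. Genes outside the tables were not analysed here, so nothing is known here of their levels.

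Among the secreted relatives with thrombospondin repeats, 3 ADAMTS genes were listed at 180 min. *ADAMTS2*, which trims the amino-terminal ends of procollagens, rose from 148 ± 41.6 (SD, n = 7) in control to 410 ± 208 (SD, n = 7) normalized counts. It was 728 in goat 10, 581 in goat 11, 177 in goat 13, 294 in goat 14, 486 in goat 15, 425 in goat 16 and 176 in goat 17, and it ranged from 86.4 to 216 in control with a median of 147. The 5 goats 10, 11, 14, 15 and 16 lay above every control goat. The difference was 1.34 (SE 0.34), with a two-sided exact permutation p of 0.00350, and the edgeR log2 fold change was 1.47, with an adjusted p of 0.0182. It stayed called in each of the 14 fits with 1 goat left out, and with TMM scaling its log2 fold change was 0.87 (adjusted p = 0.0473).

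*ADAMTS18* stood at 3.71 ± 3.44 normalized counts (SD, n = 7) in the 180 min group and 11.1 ± 5.55 (SD, n = 7) in control. Its difference of -1.56 (SE 0.54) had an exact permutation p of 0.0157, but its edgeR adjusted p was 0.0873. *ADAMTS3*, a close relative of *ADAMTS2*, stood at 1.06 ± 1.87 normalized counts (SD, n = 7) and 9.73 ± 14.4 (SD, n = 7), with an exact permutation p of 0.0845 and an edgeR adjusted p of 0.0576. Its highest control goats were goat 3 (39.4) and goat 8 (17.7), the same 2 goats as for *ADAM12*. *ADAMTS3* was also the 1 ADAMTS gene listed at 30 min, with 0.399 ± 0.799 (SD, n = 4) against 9.17 ± 13.8 (SD, n = 7) of the same control goats and an edgeR adjusted p of 0.0707.

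Of the matrix metalloproteases, 1 was listed. *MMP25*, a membrane-anchored protease of neutrophils, stood at 6832 ± 2396 normalized counts (SD, n = 7) in the 180 min group and 2845 ± 1538 (SD, n = 7) in control. Its difference was 1.37 (SE 0.34), with an exact permutation p of 0.00233 and an edgeR adjusted p of 0.0307. It was called in 11 of 14 fits with 1 goat left out.

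**Figure D5:**
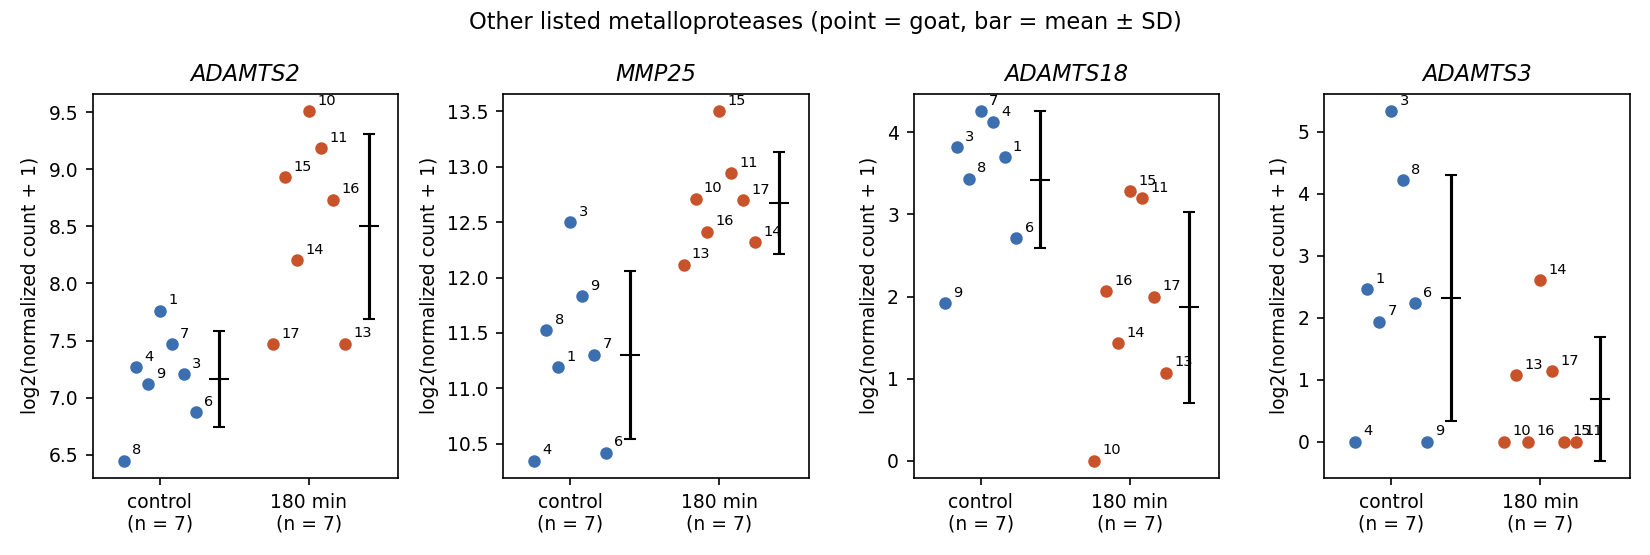
Normalized counts of the listed relatives *ADAMTS2*, *MMP25*, *ADAMTS18* and *ADAMTS3* as log2(normalized count + 1), with 1 point per goat and bars giving the mean ± SD of the 7 goats of a group. *ADAMTS2* and *MMP25* are higher in the 180 min goats with some overlap, and *ADAMTS3* in control is highest in goats 3 and 8.

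Among 35 genes whose products move, mature or hold ADAM proteases, *LCK* was listed at 180 min. *LCK* encodes the Src family kinase of T cells, which is known to bind the cytoplasmic tail of ADAM15, and it is also one of the T cell markers above. It fell from 2432 ± 470 (SD, n = 7) in control to 1453 ± 199 (SD, n = 7) normalized counts, with an edgeR log2 fold change of -0.74 and an adjusted p of 0.0307. All 7 transported goats lay below every control goat for *LCK*, and groups without overlap were found for 3.05% of the listed genes. With 1 goat left out, *LCK* was called in 11 of 14 fits.

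Of 50 genes for membrane proteins and ligands reported as cut by ADAM proteases, 8 were listed at 180 min, each with a log2 fold change above 0. Of these, 5 were called higher and 0 lower, and their median log2 fold change was 1.58 against 0.77 over all listed genes, of which 36.6% were called higher. *IL1R2*, the decoy receptor of interleukin-1, rose most, from 117 ± 84.8 (SD, n = 7) to 3466 ± 3179 (SD, n = 7) normalized counts, with a log2 fold change of 4.89 and an adjusted p of 0.00155. *CD163*, the scavenger receptor of macrophages for haemoglobin, had a log2 fold change of 1.95 (adjusted p = 0.0182). *CSF1R*, the receptor of macrophage colony-stimulating factor, had 0.89 (adjusted p = 0.0353), and *TNFRSF1A*, a receptor of tumour necrosis factor, had 0.79 (adjusted p = 0.0385). The growth factor gene *AREG*, the 1 other gene called, had 1.63 (adjusted p = 0.0410).

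*TGFA*, *CD44* and *IGFBP3*, the last of which encodes a known substrate of *ADAM12*, were listed but not called. Several of the 8 genes are also marker genes of the lists above, *IL1R2* of neutrophils and *CD163* and *CSF1R* of monocytes. Between 2 and 6 of the 8 genes were called when 1 goat was left out, the lowest number without goats 11, 15 or 16 or control goats 1, 4 or 6. With TMM scaling over the listed genes, 2 of the 8 stayed called.

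At 30 min, 5 of the 50 genes were listed and 2 were called higher, where 5.35% of the 430 listed genes were called. *FasL*, the table's name for the gene of the death ligand of T and NK cells, stood at 252 ± 122 normalized counts (SD, n = 4) against 83.7 ± 38.6 (SD, n = 7) in control, with an edgeR adjusted p of 0.0359. *ICAM1*, an adhesion molecule that binds leukocyte integrins, stood at 220 ± 67.7 (SD, n = 4) against 93.6 ± 32.3 (SD, n = 7), with an adjusted p of 0.0397. With 1 goat left out, *FasL* was called in 5 and *ICAM1* in 2 of 11 fits. With TMM scaling, and with limma in place of edgeR, 0 of the 5 genes were called. *LAG3* and *TNF* were listed and not called. The genes listed at 30 min and at 180 min were set against the same control goats.

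Within 2000000 bases of the start of *ADAM15*, 11 other genes were listed, against 1 each for *ADAM12* and *ADAM19*. The nearest was *EFNA4*, an ephrin ligand gene on the same strand, whose gene model began 1817 bases past the end of *ADAM15*. *EFNA4* stood at 91.3 ± 35.4 normalized counts (SD, n = 7) in the 180 min group and 33.9 ± 32.6 (SD, n = 7) in control, with an edgeR adjusted p of 0.0487 and a correlation of 0.63 with *ADAM15* after group means were taken out. It was called in 5 of 14 fits with 1 goat left out. Several of the other neighbours belong to the S100 family of calcium-binding proteins, some of which are abundant in neutrophils. *S100A12* and *S100A8* were called higher, with log2 fold changes of 1.51 and 1.94, and *S100A4* and *S100A2* were not called. Of the remaining neighbours of *ADAM15*, *INSRR* had a log2 fold change below 0 (-1.70). *PGLYRP4*, *LMNA*, *BGLAP*, *TDRD10* and ENSCHIG00000016845 had log2 fold changes above 0. *IL12B*, the listed neighbour of *ADAM19*, encodes a subunit of interleukin-12 and lay 1669417 bases from it.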

How the data were processed

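Blood RNA was sequenced from 18 goats, and goats were grouped from the sample labels. The authors cleaned reads with fastp and mapped them with HISAT2, and the genome build and the counting tool are not given in the sources used here. The deposited raw counts are whole reads per gene, and no per-sample column was left out. The deposited normalized counts (a signal in arbitrary units) are those counts divided by 1 DESeq2 size factor per goat, which the authors took within each of the 2 tables. The deposited FPKM are scaled by gene length and library size. The deposited p-values were used only to test that each listed gene had one below 0.05, and the authors' fold changes and adjusted p-values in the tables were not used. The effective library size, computed from count, FPKM and gene length, ranged from 10443023 to 39473244 reads, with group medians of 20601751 (control), 19382941 (30 min) and 26050407 (180 min), so that genes with few reads are measured with the least precision. No 2 goats looked like 1 library deposited more than once.

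Differences in mean log2(normalized count + 1) were tested by exact permutation, two-sided, in Python 3.11.15 (scipy 1.17.1). Beside them, the quasi-likelihood test of edgeR 4.0.16 (R 4.3.3) was fitted to the deposited counts of all listed genes with the size factors, without a low-count filter, with Benjamini-Hochberg adjustment over the listed genes. A gene was called at an adjusted p below 0.05. The adjustment covers the listed genes alone, which were selected for low p-values. Each script was tested on simulated data. Alternatives were pseudocounts of 0.1 and 10, other scalings, a filter at a mean normalized count of 10, DESeq2 1.42.0, limma 3.58.1 and leaving out each goat. The text names the members, every listed ADAM, ADAMTS, MMP and TIMP gene, up to 4 genes of smallest edgeR p of each other list (further genes are named because their counts are small), the 4 genes most like each member, and listed neighbours within 2000000 bases. The members and lists were chosen with earlier results of these data known. Results of some listed genes are not reported here.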

Additional observations from a re-analysis of the deposited data

Results flagged for a closer look

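*ADAM15* in goat 10 (15700 normalized counts, rounded) stood far above the other 6 goats of the 180 min group, of which the nearest was goat 11 at 3978. The gap was 0.82 of the range of the group, above Dixon's 95% critical value of 0.568 for 7 samples. *ADAMTS3* in goat 14 (5.11 normalized counts) also stood apart from the other 180 min goats, of which the nearest had 1.20, with a gap of 0.77 of the range. These were 2 of 14 groups of 7 goats checked over 7 genes, and chance gives such a gap in about 1 of 20 groups of normally distributed values. Normalized counts are skewed, and on the scale of log2(normalized count + 1) the gaps were 0.567 and 0.565 of the range, neither above the critical value. *ADAMTS3* in goat 14 rests on 6 reads.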

How the results depend on the processing

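The differences of *ADAM15*, *ADAM19* and *ADAM12* kept their direction and their side of the threshold in the exact permutation test under both pseudocounts, both other scalings and the exact Mann-Whitney test. Leaving out each goat, the difference ranged from 1.03 to 1.61 for *ADAM15*, from 0.70 to 1.42 for *ADAM19* and from -1.50 to -0.51 for *ADAM12*, and the edgeR log2 fold change from 0.96 to 2.01, from 1.17 to 1.89 and from -3.70 to -2.18. In edgeR's place, limma gave 1.44 for *ADAM15* with an adjusted p of 0.0508, and DESeq2 gave 1.62 for *ADAM19* with an adjusted p of 0.0317. The cause was not tested. The number of listed genes called at 180 min was 667 (456 higher, 211 lower) with edgeR, 1200 with DESeq2, 296 with limma and 48 to 755 with 1 goat left out, the fewest without control goat 1. It was 54 without control goat 6, 72 without control goat 4, 125 without control goat 8, 348 without control goat 7, 131 without goat 15, 197 without goat 11, 203 without goat 16 and 444 without goat 10. TMM scaling over the listed genes gave 503 (140 higher, 363 lower) and moved the median log2 fold change of all listed genes by -0.50. Of the genes given as called at 180 or 30 min, TMM scaling left *EFNA4*, *CSF1R*, *TNFRSF1A*, *AREG*, *CD14*, *CSF3R*, *NKG7*, *CLEC1B*, *FasL* and *ICAM1* uncalled. At 30 min it was 23 with edgeR, 355 with DESeq2, 9 with limma and 5 to 18 with 1 goat left out, the fewest without goat 21. It was 6 without goat 24, 8 without control goat 1, 14 without control goat 3 and 14 without control goat 4. The filter at a mean normalized count of 10 gave no value for *ADAM12*, whose mean was 8.27. Comparisons of the members at 30 min, and of 180 min with 30 min, were not run, since the 30 min table does not list them. No paired analysis was possible because the groups share no goat numbers.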
